A study of Pistacia vera with 121 samples.

Results

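The shell of the pistachio fruit was compared between 1759 and 1508 growing degree days (°C), the heat summed over the season, by which fruit development is timed. The comparison rests on the 3 shell libraries labelled 1759 (S29, S30 and S31) and the 3 labelled 1508 (S21, S22 and S23), 6 of the 121 libraries of the series. Genes were taken as the identifiers that start with PvKer, 37063 of the 38315 identifiers in the table. The 3 shell libraries labelled 1657 (S25, S26 and S27) serve as a midpoint.

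The series followed gene expression by RNA sequencing in hull (exocarp), shell (endocarp) and kernel (seed) of the cultivar Kerman. Its 38 groups, each a tissue at a sampling point, hold 47 hull, 35 shell and 39 kernel libraries. Hull (4 libraries at 1759 and 3 at 1508) and kernel (3 and 3) were used here for comparison. The labels name no treatment, and sampling point and tissue are the differences the labels give between them. The labels do not say whether the libraries of a group came from separate trees or fruits, so p-values measure the spread between these samples, which may be technical.

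The endocarp is the innermost layer of the fruit wall. In stone fruits and in pistachio its cells lay down thick secondary walls rich in cellulose and lignin, and the tissue hardens into a shell while the seed inside it is still small. The seed then grows and fills with storage protein and oil. Shell, hull and seed lie against each other and were separated before RNA was extracted. No identifier could be paired with a gene name, so genes appear here by identifier, and no function can be given for any of them.

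The 1759 libraries held 9259322 to 13782372 counts and the 1508 libraries 10863028 to 11243645. Within 1508 the libraries correlated on log2 CPM (counts scaled to a common library size) with r of 0.969 to 0.978, and within 1657 with r of 0.972 to 0.981. Within 1759 the values were lower, 0.937 for S29 with S30, 0.967 for S29 with S31 and 0.963 for S30 with S31. Each of the 6 libraries correlated best with the mean of its own group, itself left out, except S30, which had r of 0.977 with shell 1881 and 0.965 with its own group. Total counts, genes detected and the share of counts on contig-named features or on the 10 most abundant features did not pass an exact permutation test between 1759 and 1508, where 3 against 3 cannot give a p under 0.1.

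The 1759 libraries differed from each other in transcripts that are abundant in kernel. A list of 121 such PvKer genes was drawn up without any shell library, after the shell results had been seen, as those with a mean of at least 100 CPM over 34 kernel libraries and at least 50 times the mean of 44 hull libraries. Their summed level was 23501 CPM in S29, 1669 CPM in S30 and 7976 CPM in S31. In the 1508 libraries it was 1615 CPM in S21, 1627 CPM in S22 and 1294 CPM in S23, and in the 1657 libraries it ranged from 1114 to 1344 CPM. S30 thus stood just above the 1508 libraries, while S29 and S31 stood far above them. The median sum was 265492 CPM over kernel libraries and 470.8 CPM over hull libraries. Gene by gene, the median level in S29 was 12.4% of that in kernel at 1759 (K23 left out), against 2.78% in S31 and 0.46% in S30. Results for genes that rose are therefore given below by library and by how far kernel exceeds hull, and again without S29. In bulk tissue, more cells of a type and more RNA per cell cannot be told apart.

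**Figure D1:**
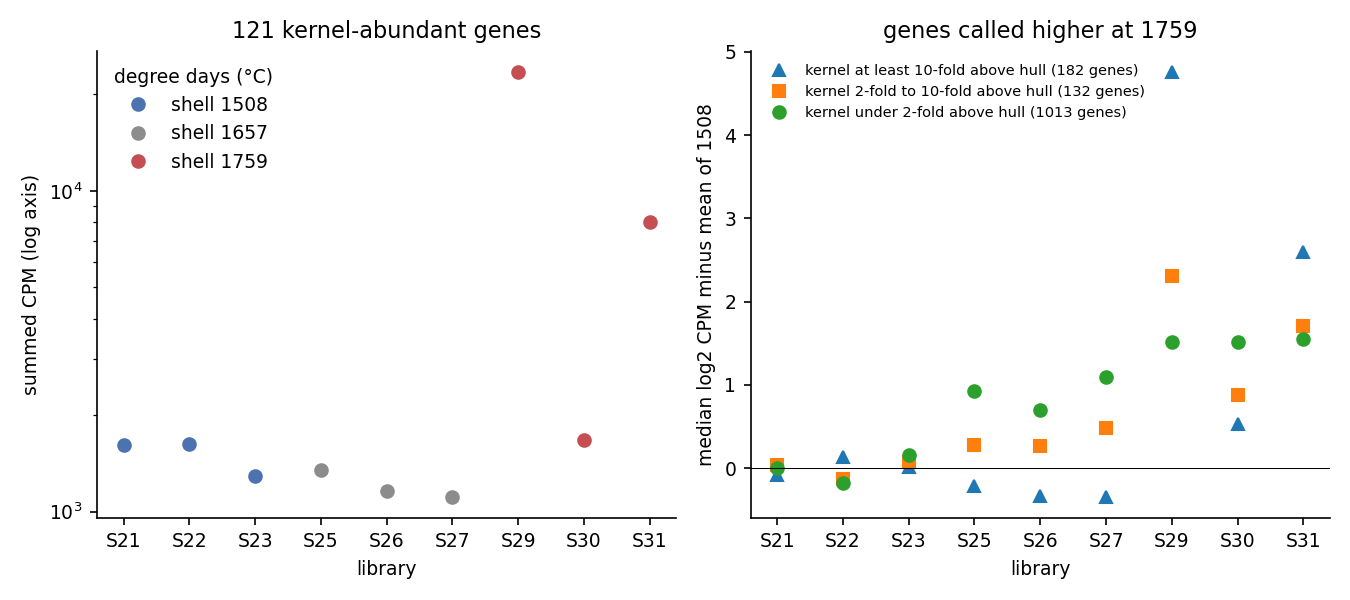
Left, the summed level of 121 kernel-abundant genes (CPM, log axis) in each shell library, with colours for 1508, 1657 and 1759 degree days. Right, the median log2 CPM of genes called higher at 1759, relative to the mean of the 1508 libraries, in 3 classes by the ratio of kernel to hull. S29 and S31 stand above the other 7 libraries on the left, and on the right the 1013 genes with kernel under 2-fold above hull lie at 1.52, 1.51 and 1.56 in S29, S30 and S31.

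Between 1508 and 1759 degree days shell genes moved in both directions. Of 18810 PvKer genes with enough counts to be tested, 1327 were higher (7.05%) and 1370 were lower (7.28%) at 1759 than at 1508, which is 14.3% in either direction. Without S22, a library of 1508, 882 genes were higher and 1066 lower. Calls required an adjusted p below 0.05 (edgeR's quasi-likelihood test, Benjamini-Hochberg) together with a log2 change of 1 or more in either direction. The median log2 change was 1.75 among genes called higher and -1.65 among genes called lower, and 0.02 over all genes tested. Summed over the genes that rose, S29, S30 and S31 held 150551, 156423 and 149984 CPM, against 48444.5, 42797 and 59696 CPM in S21, S22 and S23. The genes that fell summed to 33741, 37667 and 37026 CPM in S29, S30 and S31, against 106765, 118256 and 104395 CPM in S21, S22 and S23. The groups did not overlap in either sum, as the choice of genes fixes.

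Few genes switched between absence in every library and presence in every library. Of the genes that rose, 637 had a mean of 10 to 100 CPM at 1759 and 298 had at least 100 CPM. Of the genes that fell, 677 had 10 to 100 CPM at 1508 and 235 had at least 100 CPM. Only 2 called genes were under 0.1 CPM in all 3 libraries of 1508 and at 1 CPM or more in all 3 of 1759, and 3 went the other way. All 3 libraries of 1759 lay outside the range of the 1508 libraries for 1338 of the 1370 genes that fell and for 1133 of the 1327 that rose. Over all genes tested this held for 8315 (44.2%). Among the genes not called, the 95% interval of the log2 change lay within 1 in both directions for 6695, and for 9418 genes neither a change nor its absence at that size was shown. Called genes lay on all 15 numbered chromosomes, as read from the identifiers, and the share called ran from 12.7% on chromosome 12 to 15.8% on chromosome 10.

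**Figure D2:**
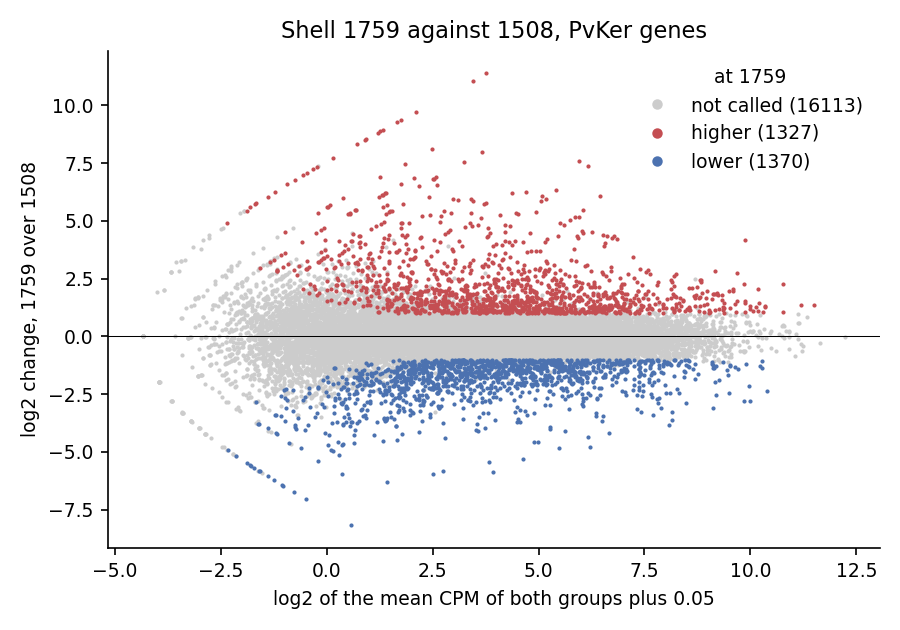
Log2 change in shell (1759 over 1508) against the log2 mean CPM of both groups plus 0.05, for 18810 PvKer genes. Genes called higher (1327) and lower (1370) are in colour. A log2 change of 3 is passed by 272 rises and by 160 falls.

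The largest rises were uneven between the 1759 libraries, while the medians of the large falls lay close together. There were 272 genes with a log2 rise of at least 3 and 160 with a fall of 3 or more. With only the 6 libraries compared in the fit, these counts were 145 and 116, and 144 of the 272 were still called higher. With the 9 libraries of 1508, 1657 and 1759 fitted they were 164 and 124, and 162 were still called. The 2 sets thus depend on the other shell libraries in the fit. The 272 genes stood at a median log2 of 4.84 above the 1508 mean in S29, 0.97 in S30 and 3.10 in S31. In S30, 135 of them were within 1 log2 unit of the 1508 mean, against 0 in S29 and 3 in S31. S29 was the highest 1759 library for 233 of the 272 genes. The remaining 1055 genes that rose had closer medians in the same order, 1.52 in S29, 1.42 in S30 and 1.48 in S31, and S29 was the highest library for 442 of them. The 160 large falls had medians of -3.02, -3.23 and -2.93 in S29, S30 and S31. Their median level at 1759 was 0.31 CPM, near the floor, where libraries can hardly differ. A large fall of the mean also needs all 3 libraries of 1759 to be low, whereas 1 high library can give a large rise. The contrast between rises and falls is therefore partly fixed by the choice of genes.

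Many of the large rises were of genes abundant in kernel. Of the 121 genes on the kernel list, 94 were called higher in shell at 1759 and 0 lower, and 69 of the 272 large rises were on it. Genes were also sorted by the ratio of their mean in kernel to that in hull. Of 426 genes tested with kernel at least 10-fold above hull, 182 rose (42.7%) and 6 fell (1.41%). This class held 126 of the 272 large rises. The filter on low counts used all shell libraries, so genes low elsewhere in shell could pass it through the 1759 libraries. The share of 42.7% may be raised by this, which was not tested. Of 1625 genes at 2-fold to 10-fold, 132 rose (8.12%) and 122 fell (7.51%). Of 16759 genes under 2-fold, 1013 rose (6.04%) and 1242 fell (7.41%). In the first class the genes that rose stood at a median log2 of 4.76 in S29, 0.53 in S30 and 2.59 in S31. In the last class the medians were 1.52, 1.51 and 1.56. This class also held 108 of the 272 large rises, and the class at 2-fold to 10-fold held 38. The medians are over all 1013 genes, and the large rises of the class were not read by library. The part of kernel transcripts in the rises was not tested in any class.

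Without S29, the library highest in kernel-abundant genes, 925 genes were called higher and 1279 lower at 1759, and 859 and 1092 of these were the same genes as with it. Of the 272 large rises, 129 were still called. By class, 65 of 182 genes at 10-fold or more, 44 of 132 at 2-fold to 10-fold and 750 of 1013 under 2-fold were still called higher, and 988 of 1242 under 2-fold were still called lower. With S30 as the only library of 1759, an alternative chosen after seeing the data in which S30 is assumed to vary like the other groups, 567 genes were called higher and 731 lower. Of the 272 large rises, 18 were then still called. S30 was also the 1759 library lowest in kernel-abundant genes. In it the 182 genes at 10-fold or more stood at a median log2 of 0.53, against 1.51 for the 1013 under 2-fold. Which rises stay called with S30 alone is therefore partly fixed by the choice of library, and nothing is read from it by class. With S30 alone the median of all genes lay at -0.11 on the log2 scale.

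At the midpoint more of the falls than of the rises were in place. At 1657 against 1508, 732 genes were higher (3.89%) and 1242 lower (6.60%). At 1759 against 1657, 715 genes were higher (3.80%) and 223 lower (1.19%), or 4.99% in either direction, against 10.5% for the first interval. These 2 comparisons share the 1657 libraries. Falls thus made up most of the calls of the first interval and rises most of those of the second. Without S29 the second interval had 208 genes higher and 98 lower. With S29, its 715 rises held 206 of the 426 genes tested with kernel at least 10-fold above hull (0 fell). They held 387 of the 16759 genes under 2-fold (209 fell). Without S25 the second interval had 381 genes higher, and without S26 it had 230 higher and 92 lower. Without S22, 484 genes were higher in the first interval.

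The position of each called gene at 1657 was read on the log2 scale between its 1508 level (0) and its 1759 level (1). Of the 1370 genes that fell, 706 were near or beyond their 1759 level at 1657 (position over 0.75), and 335 of these were beyond it. Another 527 lay between and 137 were near or beyond 1508 (position under 0.25), 56 of them beyond it. The median position was 0.77. Of the 1327 genes that rose, 398 were near or beyond their 1759 level, 192 of them beyond it. Another 440 lay between and 489 were near or beyond 1508, 272 of them beyond it, with a median of 0.46. The large rises stood at a median position of -0.0027, and 211 of 272 were near 1508. Among genes that rose, 164 of 182 with kernel at least 10-fold above hull were near 1508 at 1657, against 254 of 1013 under 2-fold. These positions are descriptions and were not tested.

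The time course of the same genes over the 11 shell sampling points, 865 to 2139 degree days, was then read, with the limit that genes chosen for a difference between 1508 and 1759 are highest or lowest at these 2 points more often by that choice alone. Of these 1370 genes, 837 (61.1%) were highest at 1508 (14.2% of all genes tested). Relative to 1508 on the log2 scale their median was -1.05 at 1106, -1.02 at 1223 and -1.07 at 1357. After the window it stayed low, at -1.62 at 1881, -1.23 at 2007 and -1.36 at 2139. For the genes that rose, 490 of 1327 (36.9%) were lowest at 1508 (12.7% of all genes), and 476 (35.9%) were highest at 1759 (7.13%). Their median was already 0.61 at 1106, 0.59 at 1223 and 0.68 at 1357, and it was 1.17 at 1881, 0.92 at 2007 and 0.99 at 2139. The shares at 1508 and 1759 are descriptions, and nothing is read from their distance to the shares of all genes.

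**Figure D3:**
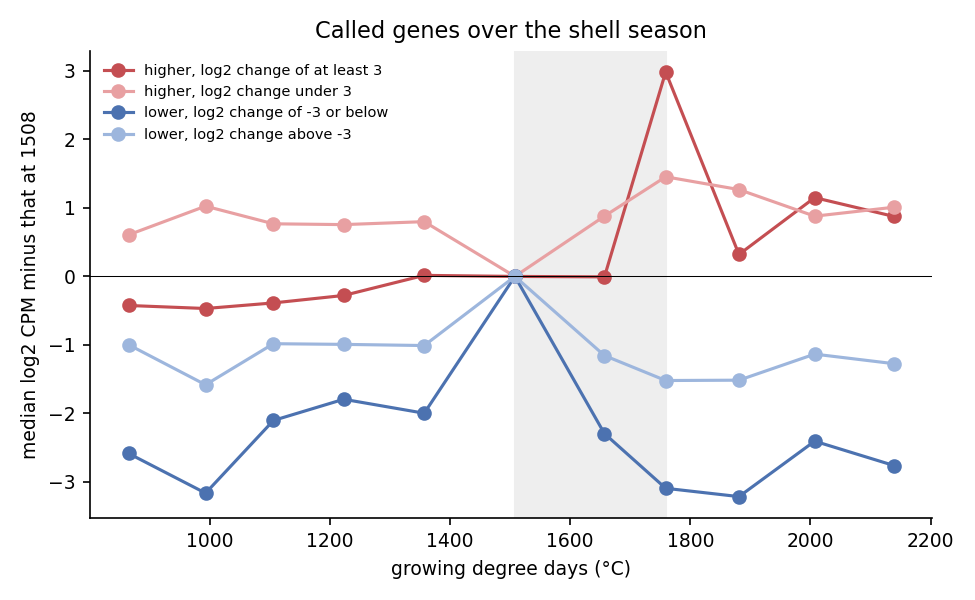
Median log2 CPM relative to 1508 degree days over the shell season, for genes called higher at 1759 (272 with a log2 change of at least 3 and 1055 under 3) and called lower (160 at -3 or below and 1210 above -3). The grey band marks 1508 to 1759. Medians are highest at 1508 for the genes that fell and at 1759 for the large rises, which the choice of genes favours. The large rises stand at 0.32 at 1881.

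At 1881 the median of the large rises was near its 1508 level. At 1759 these genes differed between libraries, with medians of 4.84 in S29, 0.97 in S30 and 3.10 in S31. Whether the step from 1759 to 1881 is one of time or of single libraries was not tested. Of the 272 genes, 219 were highest at 1759 among the 11 points. Their median was -0.01 at 1657, 2.98 at 1759, 0.32 at 1881, 1.15 at 2007 and 0.88 at 2139, on the log2 scale relative to 1508. The kernel-abundant list was low at 1881 too, at 1371 to 1741 CPM, and at 2007 it was 1262, 1312 and 6735 CPM in the 3 libraries. The other 1055 genes that rose had medians of 0.88 at 1657, 1.45 at 1759 and 1.27 at 1881, and 257 of them were highest at 1759.

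Shell libraries outside the window gave a comparison of means that used none of the 1508, 1657 and 1759 libraries. Those libraries stayed in the fit, and so in the filter on low counts, the scaling and the estimate of the spread. At 1881, 2007 and 2139 together against 1106, 1223 and 1357 together (10 libraries each), 1171 of all genes were higher (6.23%) and 2883 lower (15.3%), which is 21.6% in either direction. Of the 1327 genes that rose within the window, 357 (26.9%) were higher and 101 (7.61%) lower in this later comparison. Of the 1370 that fell, 348 (25.4%) were lower and 57 (4.16%) higher. Most genes of either list, 869 of 1327 and 965 of 1370, were not called. The direction within the window was thus more frequent than the opposite one outside it. In the class with kernel at least 10-fold above hull, 98 of the 182 genes that rose were higher outside the window. In the class under 2-fold, 236 of 1013 were. The share of all genes of each class that was higher outside the window is not given, so these counts lack a background. At 2007 the kernel-abundant list summed to 6735 CPM in the highest library, against 1262 and 1312 CPM in the others. The part of kernel transcripts in these counts was not tested.

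The hull, the outer tissue of the same fruit, was tested between the same sampling points in libraries of its own. In 1 model of all hull and shell libraries (19954 genes), 1656 genes were higher (8.30%) and 2073 lower (10.4%) in hull at 1759, or 18.7% in either direction. In that model shell had 1390 higher (6.97%) and 1511 lower (7.57%), or 14.5%. Of the 1511 genes that fell in shell, 951 also fell in hull (62.9% of the shell list and 45.9% of the hull list) and 3 rose there. Of the 1390 that rose in shell, 569 also rose in hull (40.9% of the shell list and 34.4% of the hull list) and 18 fell. The median hull change was -1.43 for the genes that fell in shell and 1.00 for those that rose. Over all 19954 genes the 2 log2 changes had the same sign in 72.6% and r of 0.455 across genes, which are not independent replicates.

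Hull calls were also counted in the classes by kernel to hull ratio. Of the 1013 genes that rose in shell with kernel under 2-fold above hull, 522 (51.5%) also rose in hull. The median hull log2 change of the 1013 was 1.19. Hull rises made up 9.38% of all genes in that class. Of the 182 genes with kernel at least 10-fold above hull, 2 rose in hull (1.10%), and the median of the 182 was 0.06. Hull rises made up 0.94% of all genes in that class. Of the 272 large rises in shell, 18 rose in hull, where 8.30% of all genes tested rose. Of the 160 large falls, 115 also fell in hull, where 10.4% of all genes fell. The kernel list summed to 419 to 1328 CPM in hull at 1759 and 545 to 904 CPM in hull at 1508.

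The difference between the shell and the hull change was then tested itself. It was called for 405 genes (2.03%), of which 277 had a higher change in shell (1.39%) and 128 a lower one (0.641%). Of the 277, 128 rose in shell, 106 fell in hull without a call in shell, 14 fell in both, and 29 were called in neither tissue. Of the 128, 30 fell in shell, 62 rose in hull without a call in shell, 4 rose in both, and 32 were called in neither tissue. The 277 included 85 of the 426 genes with kernel at least 10-fold above hull and 161 of the 16759 under 2-fold. Hull levels also enter the ratio that sets these classes. Without S29 the counts were 55 and 39, and leaving out any 1 of the 13 hull and shell libraries of these groups gave 55 to 361 and 39 to 213. With only the 4 groups fitted they were 137 and 60. These counts therefore depend on single libraries.

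**Figure D4:**
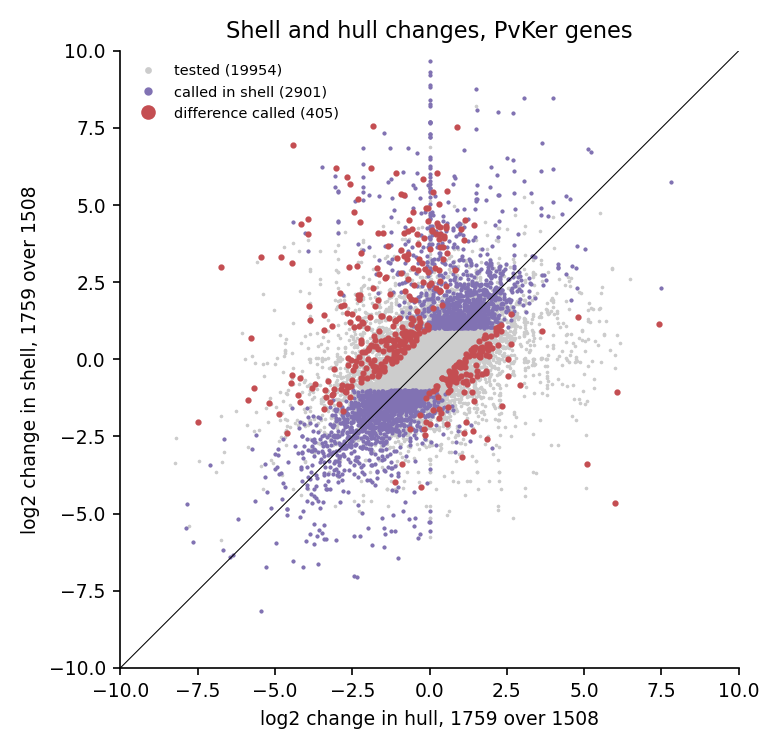
Log2 change (1759 over 1508) in shell against hull for 19954 PvKer genes, with 2901 called in shell and 405 whose difference between tissues was called in colour. The diagonal marks equal change, and 2 genes lie outside the axes. The genes that fell in shell lie near the diagonal, and large rises in shell stand above hull changes near 0.

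Kernel was tested against shell in the same way. In 1 model of kernel and shell libraries (19671 genes), 2510 genes were higher (12.8%) and 1171 lower (5.95%) in kernel at 1759, or 18.7% in either direction, and the median of all genes lay at 0.21. The same model called 937 genes higher and 824 lower in shell (4.76% and 4.19%, or 8.95% together). Of those 937, 193 (20.6%) rose in kernel, and of those 824, 99 fell in kernel. The difference between the shell and the kernel change was called higher for 1086 genes (5.52%) and lower for 1445 (7.35%), 12.9% together. Without K23, 1 of the 3 kernel libraries at 1759, kernel had 1128 genes higher and 1155 lower, and the difference was called higher for 1199 and lower for 1040. The balance between higher and lower differences therefore turned with that library. K23 was left out of the kernel to hull ratios as a library that stood apart from its label or group. The overlaps of the 937 and 824 genes with kernel calls include K23 and were not read without it.

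Single genes show these patterns. PvKer.08.g199820 had the largest log2 rise among called genes whose 1759 libraries all lay above those of 1508. It had 65.9 CPM in S29, 0.12 CPM in S30 and 15.3 CPM in S31, and no count in any library of 1508 or 1657. S30 was thus close to 0, and S29 and S31 carried the rise. At 1759 the gene had 979 counts in all, and its mean was 27.1 ± 34.4 CPM (SD, n = 3). Against a floor of 3 counts over the 1508 group (0.089 CPM) it was at least 304-fold higher at 1759, and at least 86.4-fold higher without S29. The adjusted p was 0.00157 (edgeR), and with S30 as the only library of 1759 the gene was not called (adjusted p = 0.545). With the 6 or the 9 libraries of the window alone in the model it was not tested, since its counts did not pass the filter on low counts. It had no count in hull at 1759 or 1508, and 0.16 to 1.31 CPM in kernel at 1759, so no kernel library of that point reached the level of S29 or S31. In shell it was under 0.26 CPM in each library at the other points except S39 at 2007, with 5.07 CPM, and S42 at 2139, with 0.49 CPM.

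PvKer.03.g072130 had the largest gain in CPM. It had 2688, 5503 and 4319 CPM in S29, S30 and S31, against 1633, 1442 and 1837 CPM in S21, S22 and S23. The groups did not overlap, and S30 was the highest. The log2 change was 1.35 (SE 0.29, adjusted p = 0.00126, edgeR). At 1657 it already stood at 3922 ± 600 CPM (SD, n = 3), and it was highest at 1881. Hull also rose, with 4654, 6710, 4795 and 7399 CPM at 1759, against 3338, 2233 and 2832 CPM at 1508. The hull log2 change was 1.07 (SE 0.27, adjusted p = 0.00114, edgeR), and the difference between shell and hull was 0.25 (SE 0.38, adjusted p = 0.827, edgeR).

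PvKer.08.g209400 had the largest log2 fall. It had 0.09, 0 and 0.36 CPM in S29, S30 and S31, against 13.1, 14.5 and 5.86 CPM in S21, S22 and S23. All 3 libraries of 1759 were near 0, and the group had 6 counts in all, against 377 at 1508. The log2 change was -5.97 (SE 0.88, adjusted p = 1.6e-05, edgeR). At 1657 it stood at 1.39 ± 0.29 CPM (SD, n = 3). The gene was low before the window as well, with 0.08 to 1.58 CPM from 1106 to 1357, and it was high again at 2007 with 11.5, 9.05 and 2.71 CPM. Hull fell too, and its log2 change was -3.73 (SE 0.74, adjusted p = 5.4e-05, edgeR), and the difference between the tissues, -2.27 (SE 1.19), did not pass (adjusted p = 0.345, edgeR).

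PvKer.01.g010310 had the largest loss in CPM. It had 397, 517 and 409 CPM in S29, S30 and S31, against 2286, 2297 and 2165 CPM in S21, S22 and S23. The groups lay far apart and each was tight. The log2 change was -2.35 (SE 0.30, adjusted p = 1.5e-06, edgeR). Most of the fall had taken place by 1657, at 653 ± 143 CPM (SD, n = 3). The gene was highest at 1508 of all 11 shell points, with 414 to 735 CPM in the 10 libraries from 1106 to 1357. Hull had 987, 843, 338 and 707 CPM at 1759, against 2369, 2466 and 2624 CPM at 1508, a log2 change of -1.79 (SE 0.29, adjusted p = 1.5e-06, edgeR). The difference between the tissues was -0.59 (SE 0.43, adjusted p = 0.544, edgeR).

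PvKer.11.g275270, the most abundant PvKer gene of the 6 libraries, did not pass the test. It had 5267, 4380 and 4639 CPM in S29, S30 and S31, against 5365, 4457 and 4610 CPM in S21, S22 and S23. The groups overlapped, and the log2 change was -0.01 (SE 0.32, adjusted p = 0.982, edgeR). At 1657 the 3 libraries were lower, at 3595, 2728 and 2988 CPM, a log2 change of -0.63 from 1508 that did not pass (SE 0.32, adjusted p = 0.174, edgeR). The same gene had 41474 to 220423 CPM in kernel at 1759. S29 was the highest of the 1759 libraries and lay between S21 and the other two libraries of 1508.

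**Figure D5:**
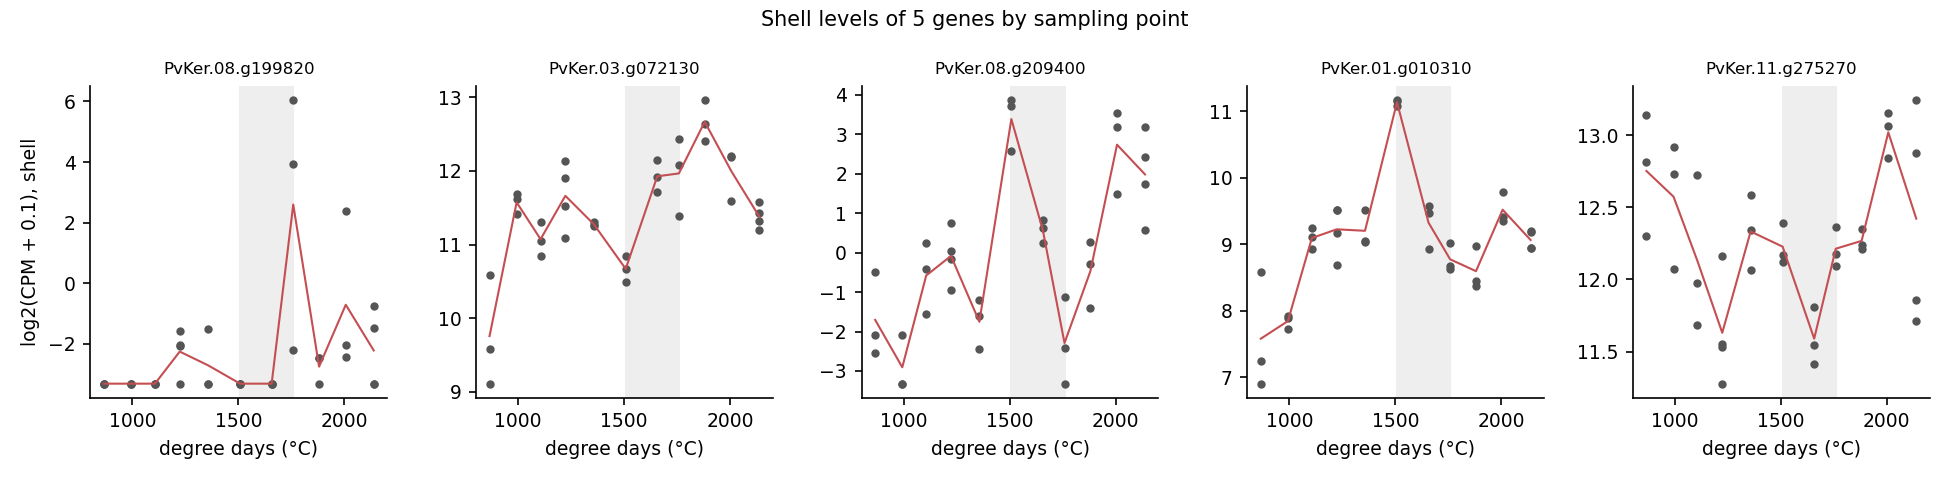
Shell levels of the 5 named genes as log2(CPM + 0.1) at 11 sampling points, with 1 point per library and a line through the group means. The grey band marks 1508 to 1759 degree days. PvKer.08.g199820 is high in 2 of the 3 libraries at 1759, PvKer.08.g209400 and PvKer.01.g010310 peak at 1508, and PvKer.11.g275270 is at 1759 close to its 1508 level.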

How the data were processed

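RNA libraries of hull, shell and kernel were made with a TruSeq RNA kit v2 and sequenced as paired-end 150-bp reads, per the labels' protocols. The values are raw gene counts in whole numbers, deposited by the authors in 1 table of 121 columns, all mapped to samples by title (0 columns not used). Trimmomatic 0.39 and Bowtie2 2.3.4.1 are named in the submitters' processing notes. Sources used here do not give the counting tool, genome build, annotation or use of strand, so counts of near-identical or overlapping genes are uncertain. Of 38315 identifiers, 0 matched the RefSeq gene table of the pistachio assembly PisVer_v2.

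Groups were taken from the labels, and libraries keep their titles. The count test was edgeR 4.0.16 under R 4.3.3 (TMM, filterByExpr by group, glmQLFit, glmQLFTest, Benjamini-Hochberg over all features), on all 35 shell libraries with a mean per sampling point. The hull and kernel comparisons were fitted with all libraries of both tissues. Contig-named features stayed in the fit (86 tested, 5 called at 1759 against 1508) and out of the counts. Standard errors are the size of the log2 change over the root of F. CPM values use TMM library sizes, and log2 CPM a prior count of 2. The kernel-abundant list, its levels and the kernel to hull ratios instead use CPM over plain library totals, without TMM. Kernel to hull ratios left out 5 kernel and 3 hull libraries that stood apart from their labels or groups. DESeq2 1.42.0, limma-voom (limma 3.58.1), other scalings and filters, and leaving out libraries were alternatives. The count test was tested on simulated data. Pairs within a group had a chi-square of 8.51 to 59.9 per degree of freedom, so no pair agreed within sampling noise. No batch is given in the labels.

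The genes and lists were chosen with earlier results of these data known. Named genes were the largest rise and fall (log2, with a mean of 10 CPM or more in the higher group) and the largest gain and loss in CPM among called genes whose groups did not overlap, and the most abundant gene.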

Additional observations from a re-analysis of the deposited data

Results flagged for a closer look

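The change between 1508 and 1759 degree days differed between tissues for a number of genes, by a test of the difference itself (edgeR's quasi-likelihood test of the interaction). Against hull, the shell change was higher for 277 genes and lower for 128. Against kernel, it was higher for 1086 genes and lower for 1445, a balance that turned to 1199 higher and 1040 lower without K23, a kernel library at 1759, and to 1191 and 1149 with limma-voom. The hull counts were 55 and 39 without S29, the shell library at 1759 with the highest level of kernel-abundant transcripts, whose part in the difference was not tested.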

How the results depend on the processing

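Titles of hull and shell libraries share numbers at a sampling point (H21 with S21), and no label says what a number marks. Deviations of same-numbered libraries from their group means had r of -0.23 to -0.01 in the 3 pairs at 1508 and 0.06 to 0.14 in the 3 pairs at 1759. Over all 28 pairs r ran from -0.23 to 0.31, with 5 over 0.1, and 24 of 56 libraries were closest to their own number, so the numbers were not taken to pair the libraries. With the title number as a replicate block, on the 56 libraries in 28 pairs, shell minus hull was higher for 214 genes and lower for 114, against 276 and 165 in the same libraries without it, an alternative chosen after seeing the data. The 1759 and 1508 shell libraries share no number. For 1759 against 1508 in shell, DESeq2 called 1377 genes higher and 1493 lower, limma-voom 1154 and 1389, and DESeq2-type size factors in edgeR 1290 and 1401. An adjusted p alone gave 2328 and 2284, and a test against a 1.5-fold change 780 and 859. Leaving out 1 library at a time gave 882 to 1318 higher (fewest without S22) and 1066 to 1325 lower. With S30 alone at 1759, chosen after seeing the data, 567 were higher and 731 lower, 48 and 11 against 1657, and 13 and 10 for shell minus hull. Leaving out 1 library gave 484 to 679 higher for 1657 against 1508, and 208 to 845 higher and 92 to 238 lower for 1759 against 1657. For shell minus hull it gave 55 to 361 higher and 39 to 213 lower, and with only 4 groups fitted 137 and 60. Without H21, 213 were lower. Leaving out 1 replicate per group gave 329 to 786 higher and 606 to 857 lower for shell minus kernel. With 1357 and 1881 alone as the points outside the window, 232 genes that rose were higher and 53 lower, and 29 that fell were higher. With bounds of 0.33 and 0.67, genes that rose were near 1508 in 41.97%, between in 22.7% and near 1759 in 35.3%, and genes that fell in 13.9%, 25.2% and 60.9%. By mean CPM these were 44.8%, 30.6% and 24.6%, and 7.37%, 26.8% and 65.8%. The cause of these differences was not tested. PvKer.08.g199820 was not called with S30 alone (log2 change 3.65, adjusted p = 0.545, edgeR), and had no value with the 6 or 9 libraries of the window alone fitted, where its counts did not pass the filter. The other named genes kept their direction and call under every alternative run, except that the direction of PvKer.11.g275270, never called, ranged from -0.17 to 0.07. The balance of shell minus kernel calls, 1086 higher and 1445 lower, turned to 1199 and 1040 without K23, 1191 and 1149 with limma-voom, and 732 and 610 without replicate 3. At 3 libraries per group, changes of low genes are the least certain.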
